A study of Homo sapiens with 8 samples.

Results

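Long intergenic noncoding RNA (LINC) genes were examined in poly(A) RNA of human UWB1.289 cells, an ovarian carcinoma line, and of its derivative with restored BRCA1. The set held 149 genes, selected on their own read counts: every entry whose symbol begins with LINC and whose counts over the 8 libraries sum to at least 200. They stood among 617 LINC entries, of which 148 had 0 counts and 320 had between 1 and 199, and among 25369 named entries in all. Just inside the threshold were LINC00167 and LINC00578 with 202 counts and LINC01087 with 206, and just outside were LINC00673 with 197, LINC00629 with 196 and LINC00893 with 193. All 149 passed the filter on low counts, which left 17714 genes for testing.

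UWB1.289 carries a deleterious BRCA1 mutation and is called BRCA1-null. BRCA1+ is 1 derived line into which BRCA1 was introduced, so any difference between the lines is a difference between 2 cultures and cannot be told apart from other divergence of that derivative. Each line was treated for 24 h with 0.5 uM entinostat, an inhibitor of class I histone deacetylases, or with the vehicle DMSO, called control. Each of these 4 groups had 2 libraries, and the labels do not say whether they came from separate cultures, so the tests measure only the spread between these libraries. The questions addressed were how LINC levels differed between BRCA1-null and BRCA1+ cells, and how each line responded to the inhibitor.

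LINC genes are transcribed by RNA polymerase II from their own promoters between protein-coding genes, and their transcripts are often spliced and polyadenylated like messenger RNA. Most are expressed at low levels and in few cell types. Some act in the nucleus on nearby genes or chromatin, others bind proteins or microRNAs in the cytoplasm, and a few were later found to encode small proteins. Histone acetylation marks active promoters and enhancers, and class I histone deacetylases remove it.

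The libraries held 31900158 to 53549893 counts. The LINC set took 0.122% to 0.133% of them. Replicate libraries of every group differed by more than sampling noise, with chi-square values of 8.18 to 14.1 per degree of freedom. BRCA1, the manipulated gene, had a mean of 95.6 CPM (counts scaled to a common library size of 1e6) in BRCA1+ control and 21.7 CPM in BRCA1-null control cells. The carcinoma markers EPCAM, KRT7, KRT8, KRT18, PAX8, MUC16 and MSLN were all at 78.1 CPM or more in every library, while FOLR1 was at 1.23 to 8.23 CPM and WT1 had only 1 to 20 counts per library. Of the fibroblast markers, DCN and LUM had 0 counts in every library, and COL1A1 and COL1A2 had 178 to 1736. Of the blood markers, CD3E had 0 to 4 counts, and PTPRC, CD68 and CD14 had 20 to 1451. The endothelial markers PECAM1, VWF and KDR had 29 to 395 counts. The part of these markers in the results was not tested.

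The level of a typical LINC gene was low. The median of the 149 genes was 2.48 CPM, against 14.8 CPM for all tested genes. Per kilobase of the deposited transcript length the medians were 0.995 and 5.40 CPM per kb. The range within the set was wide, from 202 to 99020 summed counts, with a median of 890. LINC00657, LINC01057 and LINC00506 together took 34.0% to 43.3% of all counts of the set in a library. A lower number of expressing cells and less RNA per cell cannot be told apart in these bulk samples.

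**Figure D1:**
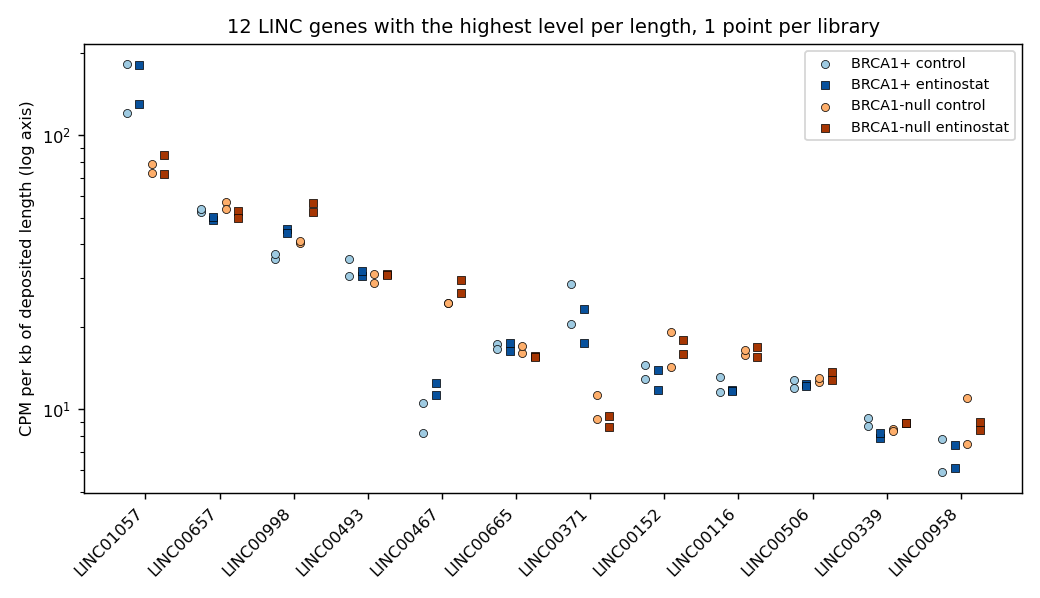
Level per kilobase of deposited length (CPM per kb, log axis) of the 12 LINC genes with the highest mean level, with 1 point per library, circles for control, squares for entinostat, blue for BRCA1+ and orange for BRCA1-null. LINC01057 and LINC00371 were lower in all BRCA1-null libraries than in all BRCA1+ libraries, LINC00467 was higher in all of them, and LINC00657 stayed within 265 to 297 CPM by group mean before division by length.

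Per length, LINC01057 was the most abundant, at 115 CPM per kb as a mean of the 4 groups. It is now named SLC44A3-AS1 and starts 60 bases from the start of SLC44A3, which is read in the other direction. LINC00657 followed at 52.4 CPM per kb, LINC00998 at 44, LINC00493 at 31.3 and LINC00467 at 18.4. The next 7 were LINC00665, LINC00371, LINC00152, LINC00116, LINC00506, LINC00339 and LINC00958, from 16.5 down to 7.88 CPM per kb. The neighbours in this order LINC00665, LINC00371 and LINC00152, were at 16.5, 16.03 and 15.1 CPM per kb, and their ranges over libraries overlapped.

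LINC00657 is the gene of NORAD, a cytoplasmic RNA that binds the PUMILIO proteins and is known for a role in genome stability. It lies at chr20:34633540-34638882 on the minus strand as a single exon of 5343 bases. PUMILIO proteins bind the letters TGTANATA, and this motif occurred 15 times in the sense strand of LINC00657, or 2.81 times per kb of exon. The next densest LINC gene was LINC00938 with 0.934 per kb. The window below (hg19, chr20:34637384-34637683, minus strand, transcript bases 1200 to 1499) is shown because it holds 3 of the 15 matches, which are in capitals.

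LINC00657: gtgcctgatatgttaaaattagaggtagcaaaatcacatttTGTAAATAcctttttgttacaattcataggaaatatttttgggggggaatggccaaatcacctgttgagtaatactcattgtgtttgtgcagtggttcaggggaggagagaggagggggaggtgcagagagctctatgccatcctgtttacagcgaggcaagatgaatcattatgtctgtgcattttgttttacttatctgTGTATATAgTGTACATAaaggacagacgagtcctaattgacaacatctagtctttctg

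LINC00657 was close to even across the groups. Its counts were 11216 and 13190 in the BRCA1+ control libraries, 8304 and 12453 with entinostat, 13919 and 15644 in the BRCA1-null control libraries and 13209 and 11085 with entinostat. The group means were 284 ± 4.83 CPM, 265 ± 4.63 CPM, 297 ± 12.8 CPM and 274 ± 11.5 CPM in the same order (SD, n = 2). Differences between lines and treatments were within -0.12 to 0.064 on the log2 scale, and none passed the test (adjusted p from 0.205 to 0.565 over the line and entinostat comparisons). Near-identical stretches in annotated transcripts of other genes covered 32.5% of its exon bases, so some reads may have been placed on or lost to them.

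A large share of the LINC genes differed between the lines. In DMSO, 60 of the 149 were called at an adjusted p under 0.05, or 40.3%, against a background of 42.2% of all tested genes. Among them 48 were higher in BRCA1-null cells, where 21.1% of all genes were called higher, and 12 were lower, where 21% were. The median log2 fold change was 0.35 in the set and 0.012 over all tested genes. An excess of higher over lower calls was also present among weakly expressed genes in general. Of the 2950 tested genes with 200 to under 1000 summed counts, 720 were called higher and 240 lower, with a median of 0.25. In either direction 32.5% of them were called. The 80 LINC genes in that range of counts had 27 higher and 4 lower calls, or 38.75% in all, and a median of 0.48. The 69 with 1000 counts or more had 21 higher and 8 lower calls, or 42.0% in all, and a median of 0.17. Of all 12623 genes in that range 2649 were called higher and 3385 lower, or 47.8% in all, with a median of -0.042.

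The weakly expressed members were highest in 1 library. Their summed level was 84.3 to 86.6 CPM in BRCA1+ control, 88.7 to 94.5 CPM in BRCA1+ entinostat, 106 and 123 CPM in BRCA1-null control and 95.8 to 105 CPM in BRCA1-null entinostat libraries. The value of 123 CPM was that of BRCA1-null control replicate 2. Fewer LINC genes were called in the DMSO comparison without this library, and also without BRCA1+ control replicate 2. In both fits higher calls still outnumbered lower ones. Each fit leaves 1 library in a group and fewer degrees of freedom, and its calls over all tested genes are not given here. The part of BRCA1-null control replicate 2 in the result was not tested.

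In entinostat, which shares no library with the DMSO comparison, 41 of 149 were called between the lines against a background of 39.4%. There were 31 higher and 10 lower in BRCA1-null cells, against 20.5% and 18.9% of all genes. The median log2 fold change was 0.13, against 0.019 for all genes. Fewer were called without BRCA1+ entinostat replicate 2, a fit that leaves 1 library in that group. In both comparisons 36 genes were called, 60.0% of the DMSO list and 87.8% of the entinostat list, and all 36 had the same direction. Of the 24 called in DMSO alone, 17 had the same sign in entinostat, and of the 5 called in entinostat alone, all 5 had the same sign in DMSO. Across the 149 genes, which are not independent replicates, Pearson's r between the log2 fold changes was 0.85, and it was 0.86 over all tested genes.

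**Figure D2:**
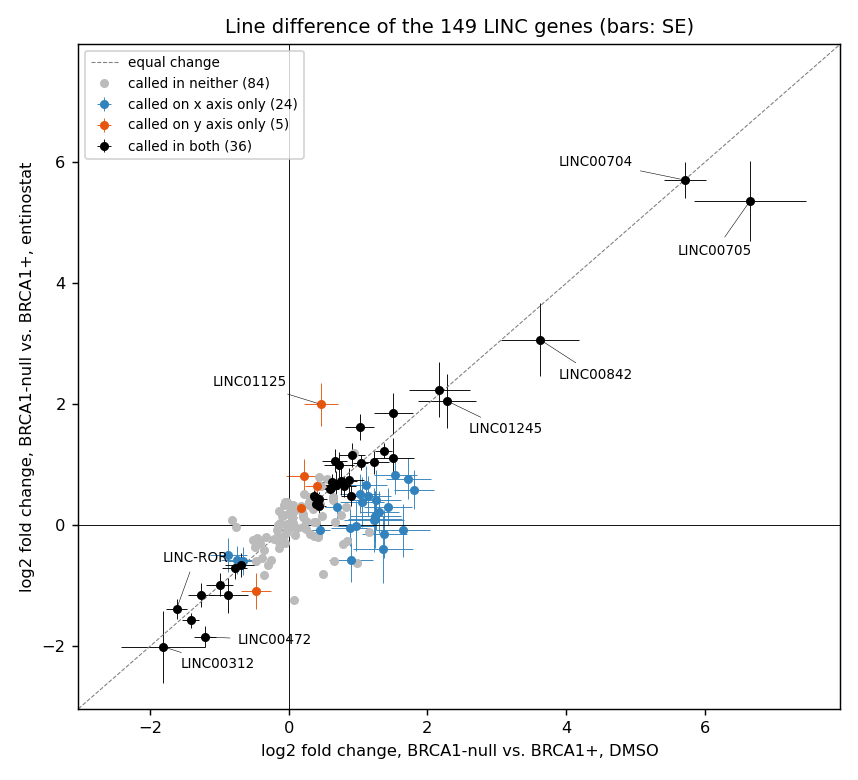
Log2 fold change of BRCA1-null vs. BRCA1+ cells in DMSO (x axis) and in entinostat (y axis) for the 149 LINC genes, with SE bars on called genes and a dashed line of equal change. LINC00704 and LINC00705 stand far from the rest at the upper right, 36 genes are called on both axes, and the 24 called in DMSO alone lie closer to 0 in entinostat than in DMSO, 21 of them below the dashed line. Picking genes by a call in DMSO and none in entinostat favours such positions by itself.

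The largest difference between the lines was in a pair of overlapping genes on chromosome 10 that lie on opposite strands. LINC00704 is now named MANCR, for mitotically associated long noncoding RNA. Its counts were 7 and 11 in the BRCA1+ control libraries, 11 and 9 with entinostat, 463 and 660 in the BRCA1-null control libraries and 571 and 626 with entinostat. Both BRCA1-null groups lay far above both BRCA1+ groups. The group means were 0.207 ± 0.0457 CPM in BRCA1+ control and 11.2 ± 1.39 CPM in BRCA1-null control cells (SD, n = 2), a log2 fold change of 5.72 ± 0.30 (SE, adjusted p = 2.58e-06), and the difference in entinostat was 5.71 ± 0.29 (adjusted p = 2.38e-06). LINC00705 had counts of 1 and 0 in the BRCA1+ control libraries, 3 and 0 with entinostat, 59 and 87 in the BRCA1-null control libraries and 71 and 80 with entinostat. Every BRCA1+ library was at or under 3 counts, the floor that a count of 0 allows, so the level in BRCA1-null cells is given as a bound, at least 20.6-fold higher in DMSO and at least 21.5-fold higher in entinostat against 3 counts per library. It was the only LINC gene of the set with at most 3 counts in each library of 1 line. The genes share 12.5% of the exon bases of LINC00704 and 18.99% of those of LINC00705 on opposite strands, and the counting was not stated to use strand. The nearest tested gene named by the rule, AKR1E2, lay 148106 bases away and did not pass the test in DMSO (1.04, adjusted p = 0.245), while in entinostat it was higher in BRCA1-null cells (1.71, adjusted p = 0.0305).

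The 300 bases around the annotated start of LINC00704, chr10:4720213-4720512 (minus strand), are shown because this gene belongs to the pair with the largest difference between the lines. The window runs from 250 bases before to 50 bases after the start on hg19. Capitals mark every match to the GC box GGGCGG and the box named CCAAT, both searched on either strand, and to the TATA motif TATAAA, searched on the strand of the gene. No match overlapped another kind. LINC00704 held 1 CCAAT match, 2 CpG pairs and 36.7% GC.

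LINC00704: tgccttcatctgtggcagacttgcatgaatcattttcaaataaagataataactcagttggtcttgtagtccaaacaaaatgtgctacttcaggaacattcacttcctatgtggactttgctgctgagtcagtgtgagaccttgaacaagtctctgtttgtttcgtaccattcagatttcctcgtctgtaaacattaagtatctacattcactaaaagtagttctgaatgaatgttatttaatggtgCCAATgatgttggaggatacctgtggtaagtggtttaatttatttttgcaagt

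All 8 members on chromosome 10 were called higher in BRCA1-null cells in DMSO, with a median log2 fold change of 1.95. Of all 674 tested genes of that chromosome 21.4% were called higher and 16.6% lower, and their median was -0.0081. The chromosome was singled out after its values were seen. Beside the pair above they were LINC00842 (3.63), LINC00839 (2.17), LINC00959 (1.72), LINC00857 (1.04), LINC00263 (0.76) and LINC00999 (0.61), with adjusted p-values from 0.000123 to 0.0272. The 8 members lay between positions 4692377 and 131909081. LINC00704 and LINC00705 had few counts in BRCA1+ cells and met the count threshold of the set through their BRCA1-null libraries. Their membership was thus tied to the direction of their calls. They also overlap, so they are not independent cases. In entinostat 7 of the 8 were called, and LINC00959 was at 0.77 (adjusted p = 0.101). The entinostat calls of LINC00842 and LINC00839 were lost without BRCA1+ entinostat replicate 2. LINC00857 had counts of 265 and 311 in the BRCA1+ control libraries, 196 and 312 with entinostat, 633 and 740 in the BRCA1-null control libraries and 671 and 513 with entinostat, with no overlap between the lines. LINC00999 has near-identical copies over 79.6% of its exon bases, so its reads are uncertain.

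**Figure D3:**
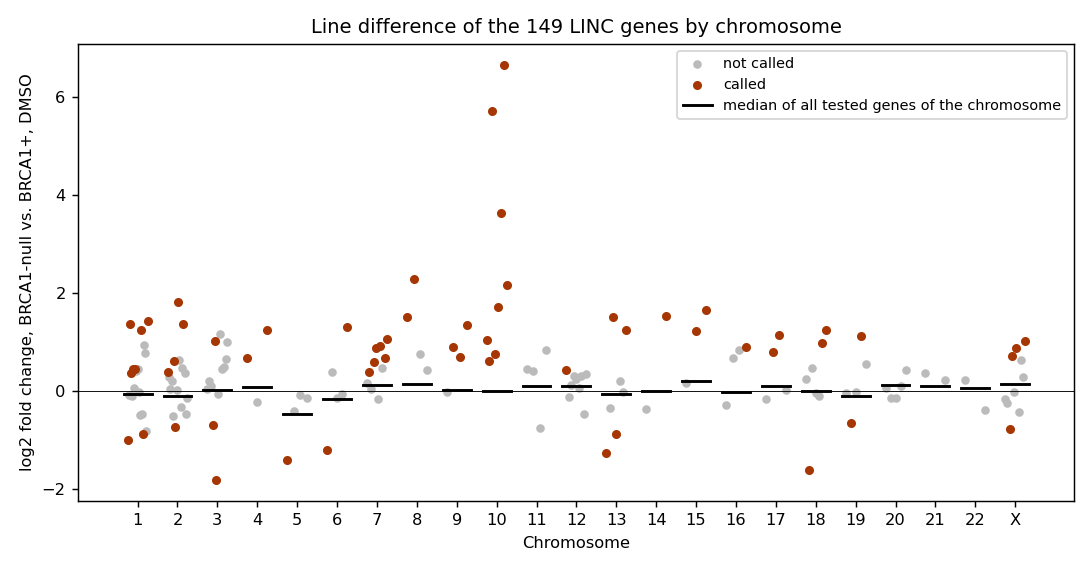
Log2 fold change of BRCA1-null vs. BRCA1+ cells in DMSO (y axis) for the 149 LINC genes by chromosome (x axis), with 1 point per gene, brown where called and grey where not, and a black bar at the median of all tested genes of the chromosome. All 8 points on chromosome 10 are above 0 and called, while its bar is at -0.0081.

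Among the other genes with the largest positive differences in DMSO was LINC01245, now CASC19, a noncoding gene of the gene-poor region upstream of MYC. Its counts were 9 and 34 in the BRCA1+ control libraries, 16 and 25 with entinostat, 99 and 146 in the BRCA1-null control libraries and 79 and 115 with entinostat, and it was higher by 2.29 ± 0.41 (SE, adjusted p = 0.00206) with no overlap between the lines. Its neighbour CCAT1 was also higher (1.77, adjusted p = 2.08e-05). LINC01105 (1.81), LINC00924 (1.65), LINC00638 (1.54) and LINC00598 (1.51) were called higher in DMSO, and of these only LINC00598 was called in entinostat (1.12, adjusted p = 0.0242). The call of LINC00924 was lost without BRCA1+ control replicate 2 and without BRCA1-null control replicate 2. LINC01125 is now C2orf92, a protein-coding gene, and was called higher in BRCA1-null cells in entinostat alone (2.00 ± 0.35, adjusted p = 0.00171), against 0.47 ± 0.25 in DMSO (adjusted p = 0.156).

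The members higher in BRCA1+ cells were fewer but included some of the more abundant ones. LINC01057 had counts of 9643 and 7375 in the BRCA1+ control libraries, 7577 and 8017 with entinostat, 4762 and 5267 in the BRCA1-null control libraries and 5268 and 4005 with entinostat. Its log2 fold change, BRCA1-null vs. BRCA1+, was -0.99 ± 0.19 in DMSO (SE, adjusted p = 0.00308) and -0.98 ± 0.19 in entinostat (adjusted p = 0.00350), while the head-to-head gene SLC44A3 was higher in DMSO (0.46, adjusted p = 0.00253). LINC-ROR, known as a regulator of reprogramming to pluripotency, had counts of 687 and 689 in the BRCA1+ control libraries, 488 and 530 with entinostat, 228 and 296 in the BRCA1-null control libraries and 241 and 209 with entinostat. All 4 BRCA1+ libraries were above all 4 BRCA1-null libraries, with 16.1 ± 1.54 CPM and 5.23 ± 0.307 CPM in control cells (SD, n = 2) and a log2 fold change of -1.62 ± 0.16 (SE, adjusted p = 5.51e-05).

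LINC00847 (-1.41), LINC00371 (-1.26) and LINC00472 (-1.21) were also lower in BRCA1-null cells in DMSO, with adjusted p-values of 2.70e-05, 0.000685 and 0.000332, and each was called in entinostat. LINC00847 shares 68.9% of its exon bases with genes on the opposite strand, among them HEIH, which was lower by nearly the same amount (-1.39), and reads of these genes cannot be told apart without strand. LINC00371 is now C13orf42, a protein-coding gene. LINC00472 had counts of 436 and 520 in the BRCA1+ control libraries, 389 and 583 with entinostat, 263 and 215 in the BRCA1-null control libraries and 170 and 137 with entinostat, with no overlap between the lines.

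LINC00312 had the most negative value, -1.82 ± 0.61 (SE, adjusted p = 0.0379), but it depended on single libraries. Its counts were 74 and 246 in the BRCA1+ control libraries, 85 and 279 with entinostat, 31 and 74 in the BRCA1-null control libraries and 38 and 63 with entinostat. In every group the second library held more counts than the first, and BRCA1+ control replicate 1 had the same count as BRCA1-null control replicate 2, although in CPM no BRCA1-null library reached a BRCA1+ library. Without BRCA1+ control replicate 2 the value was -0.82 and the call was lost, as it also was without BRCA1-null control replicate 1 (-1.42) and without BRCA1-null control replicate 2 (-2.44). LMCD1, 3656 bases away, was lower too (-1.60, adjusted p = 0.000495). The remaining lower calls named by the rule were LINC00452 (-0.87), LINC00115 (-0.87), LINC00086 (-0.78) and LINC01158 (-0.74), with adjusted p-values from 0.00808 to 0.0341, and each lost its call without at least 1 library. LINC00452 was at -0.55 without BRCA1-null control replicate 1 and at -1.34 without BRCA1-null control replicate 2, and LINC00115 was at -0.51 without the latter. LINC00115 has near-identical copies over 94.1% of its exon bases.

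Entinostat changed few LINC genes. In BRCA1+ cells 7 of 149 were called, or 4.70%, against a background of 14.1% of all tested genes. There were 5 raised, where 8.13% of all genes were called higher, and 2 lowered, where 6% were. The set's median log2 fold change was 0.032, against 0.00041 for all genes. In BRCA1-null cells 9 were called, or 6.04%, against a background of 10.8%, with 3 raised and 6 lowered, where 7.57% and 3.19% of all genes were. The medians there were -0.053 for the set and 0.019 for all genes. Among all genes with 200 to under 1000 summed counts 8.61% were called in BRCA1+ and 10.1% in BRCA1-null cells. For the LINC genes in that range the shares were 3.75% and 5%. With 1000 counts or more they were 5.80% and 7.25% of the LINC genes, against 17.1% and 11.6% of all genes in that range. Leaving out 1 library moved the count from 7 to between 1 and 7 in BRCA1+ and from 9 to between 2 and 16 in BRCA1-null cells. It was 1 without BRCA1+ entinostat replicate 2, and 2 without each of the other BRCA1+ libraries. In BRCA1-null cells it was 16 without BRCA1-null control replicate 1, 2 without BRCA1-null control replicate 2 or BRCA1-null entinostat replicate 1, 5 without BRCA1-null entinostat replicate 2, and 4 without either BRCA1+ entinostat library, which enters only through the shared spread.

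**Figure D4:**
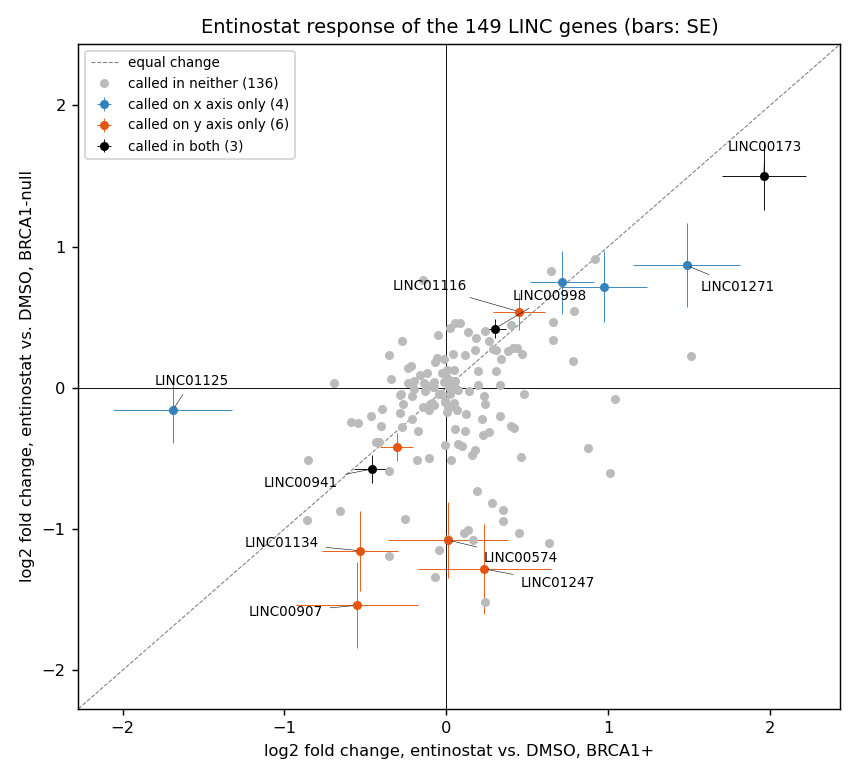
Log2 fold change of entinostat vs. DMSO in BRCA1+ (x axis) and BRCA1-null cells (y axis) for the 149 LINC genes, with SE bars on called genes and a dashed line of equal change. LINC00173 is raised on both axes, LINC00998 rises and LINC00941 falls by less on both, and 136 genes are called on neither axis.

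Both lines shared 3 called genes, 42.9% of the BRCA1+ list and 33.3% of the BRCA1-null list, each with the same direction in both lines. The comparisons in the lines have no library in common. LINC00173 had counts of 46 and 64 in the BRCA1+ control libraries, 120 and 274 with entinostat, 68 and 91 in the BRCA1-null control libraries and 213 and 186 with entinostat. Every entinostat library was above every control library of either line. It rose from 1.27 ± 0.172 CPM to 4.84 ± 1.50 CPM in BRCA1+ and from 1.58 ± 0.127 CPM to 4.50 ± 0.0633 CPM in BRCA1-null cells (SD, n = 2), a log2 fold change of 1.96 ± 0.26 (SE, adjusted p = 0.00242) and 1.50 ± 0.24 (adjusted p = 0.00724). These were the largest positive values in the set in each line among called genes, and both calls were kept under all 15 alternatives. Its nearest named neighbour, MAP1LC3B2, had values of 0.23 for BRCA1+ and 0.28 for BRCA1-null cells and passed the test in neither.

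LINC00998 is now SMIM30, which encodes a small membrane protein. Its counts were 1594 and 1912 in the BRCA1+ control libraries, 1619 and 2293 with entinostat, 2073 and 2517 in the BRCA1-null control libraries and 2776 and 2661 with entinostat. In CPM it rose from 40.8 ± 1.26 CPM to 50.2 ± 1.15 CPM in BRCA1+ and from 45.9 ± 0.528 CPM to 61.5 ± 3.19 CPM in BRCA1-null cells (SD, n = 2). The change was small, 0.30 ± 0.068 (SE, adjusted p = 0.0217) and 0.42 ± 0.066 (adjusted p = 0.00681). Its neighbour GPR85, 28939 bases away, was raised in both lines (2.75 and 1.48, adjusted p = 0.0288 and 0.00712). The BRCA1-null call of LINC00998 was kept under all 15 alternatives, and the BRCA1+ call was lost without any 1 of the 4 BRCA1+ libraries.

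LINC00941 fell in both lines. It had counts of 478 and 595 in the BRCA1+ control libraries, 289 and 420 with entinostat, 715 and 977 in the BRCA1-null control libraries and 533 and 472 with entinostat, and in CPM the entinostat libraries of each line lay below its control libraries. In BRCA1+ cells the log2 fold change was -0.46 ± 0.11 (SE, adjusted p = 0.0279). The BRCA1-null value was -0.57 ± 0.10 (adjusted p = 0.0102). All of its exon bases are also assigned to a second annotated gene on the same strand. The call was lost without any 1 of the 4 BRCA1+ libraries, and in BRCA1-null cells without BRCA1-null entinostat replicate 1 and without BRCA1-null control replicate 2.

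The start windows of these 3 genes are shown because they changed the same way in both lines, with the same motifs in capitals. LINC00173 (chr12:116970977-116971276 (plus strand)) held 3 GC boxes, LINC00941 (chr12:30948365-30948664 (plus strand)) held 2, and LINC00998 (chr7:112758588-112758887 (minus strand)) held 1 GC box and 1 TATAAA match.

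LINC00173: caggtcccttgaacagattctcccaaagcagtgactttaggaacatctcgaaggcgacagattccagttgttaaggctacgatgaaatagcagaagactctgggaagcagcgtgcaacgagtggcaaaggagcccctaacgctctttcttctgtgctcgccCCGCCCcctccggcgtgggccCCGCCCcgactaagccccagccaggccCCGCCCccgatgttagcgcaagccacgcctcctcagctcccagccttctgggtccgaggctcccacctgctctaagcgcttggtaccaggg

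LINC00941: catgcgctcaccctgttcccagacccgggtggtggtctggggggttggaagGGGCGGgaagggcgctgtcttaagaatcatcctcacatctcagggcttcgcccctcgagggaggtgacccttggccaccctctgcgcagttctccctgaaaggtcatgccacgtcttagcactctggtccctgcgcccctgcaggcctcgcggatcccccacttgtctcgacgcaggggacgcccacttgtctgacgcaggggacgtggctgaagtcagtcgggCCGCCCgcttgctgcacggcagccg

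LINC00998: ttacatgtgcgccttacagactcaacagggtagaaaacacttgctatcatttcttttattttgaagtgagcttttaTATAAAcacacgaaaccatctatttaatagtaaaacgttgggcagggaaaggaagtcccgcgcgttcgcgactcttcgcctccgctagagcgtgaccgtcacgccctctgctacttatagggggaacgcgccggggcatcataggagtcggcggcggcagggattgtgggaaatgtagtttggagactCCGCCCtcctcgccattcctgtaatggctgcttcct

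The median ratio of observed to expected CpG over such windows was 0.498 in the 149 genes and 0.771 in all tested genes, and a GC box was present in 37.6% and 60.0%. The TATA motif was present in 10.1% of the LINC windows and 4.99% of those of all tested genes, and the CCAAT box in 34.9% and 34.97%. All 6 genes raised by entinostat in either line held a GC box, as did 3 of the 7 lowered, a description of few genes looked at after their values were seen. The 6 include LINC01270 and LINC01271, which overlap.

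The other genes raised in BRCA1+ cells were LINC01271 (1.49 ± 0.33, adjusted p = 0.0200), LINC01270 (0.97 ± 0.26, adjusted p = 0.0397) and LINC00883 (0.72 ± 0.20, adjusted p = 0.0439), with SE after each value. LINC01271 and LINC01270 overlap on opposite strands of chromosome 20 near CEBPB. They share 76.4% and 35.3% of their exon bases, so their reads cannot be told apart. LINC01271 had counts of 29 and 22 in the BRCA1+ control libraries, 61 and 69 with entinostat, 40 and 40 in the BRCA1-null control libraries and 80 and 50 with entinostat. LINC00883 is now DUBR, and its BRCA1-null value of 0.75 (adjusted p = 0.0643) did not pass the test. LINC01125 was lowered in BRCA1+ cells, with counts of 53 and 47 in the BRCA1+ control libraries, 16 and 12 with entinostat, 73 and 88 in the BRCA1-null control libraries and 65 and 63 with entinostat and a log2 fold change of -1.69 ± 0.37 (SE, adjusted p = 0.0183). Its BRCA1+ entinostat libraries were below all 6 others. Of these calls, those of LINC01270 and LINC00883 were lost without any 1 of the 4 BRCA1+ libraries, that of LINC01271 without 3 of them, and that of LINC01125 without BRCA1+ control replicate 1 or BRCA1+ entinostat replicate 2.

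In BRCA1-null cells LINC01116 was raised (0.54 ± 0.13, adjusted p = 0.0325, SE after the value). Lowered there were LINC00907 (-1.54), LINC01247 (-1.28), LINC01134 (-1.15), LINC00574 (-1.08) and LINC01128 (-0.42), beside LINC00941, with adjusted p-values from 0.0162 to 0.0379. LINC00907 had counts of 48 and 41 in the BRCA1+ control libraries, 31 and 24 with entinostat, 79 and 125 in the BRCA1-null control libraries and 34 and 28 with entinostat. The BRCA1-null control libraries stood above all 6 others. LINC01247 (63 and 113 in BRCA1-null control, 42 and 22 with entinostat) and LINC00574 (51 and 85 in control, 31 and 26 with entinostat) had the same form, with the highest count in BRCA1-null control replicate 2. The calls of LINC01247, LINC01134 and LINC00574 were lost when any 1 library other than BRCA1-null control replicate 1 was left out. That of LINC01128 and that of LINC01116 were lost without BRCA1-null control replicate 1 or 2, without BRCA1-null entinostat replicate 1, and without either BRCA1+ entinostat library. All 5 were also lost when only the groups compared entered the fit, and LINC00907 was lost without BRCA1-null control replicate 2 or either BRCA1-null entinostat library.

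**Figure D5:**
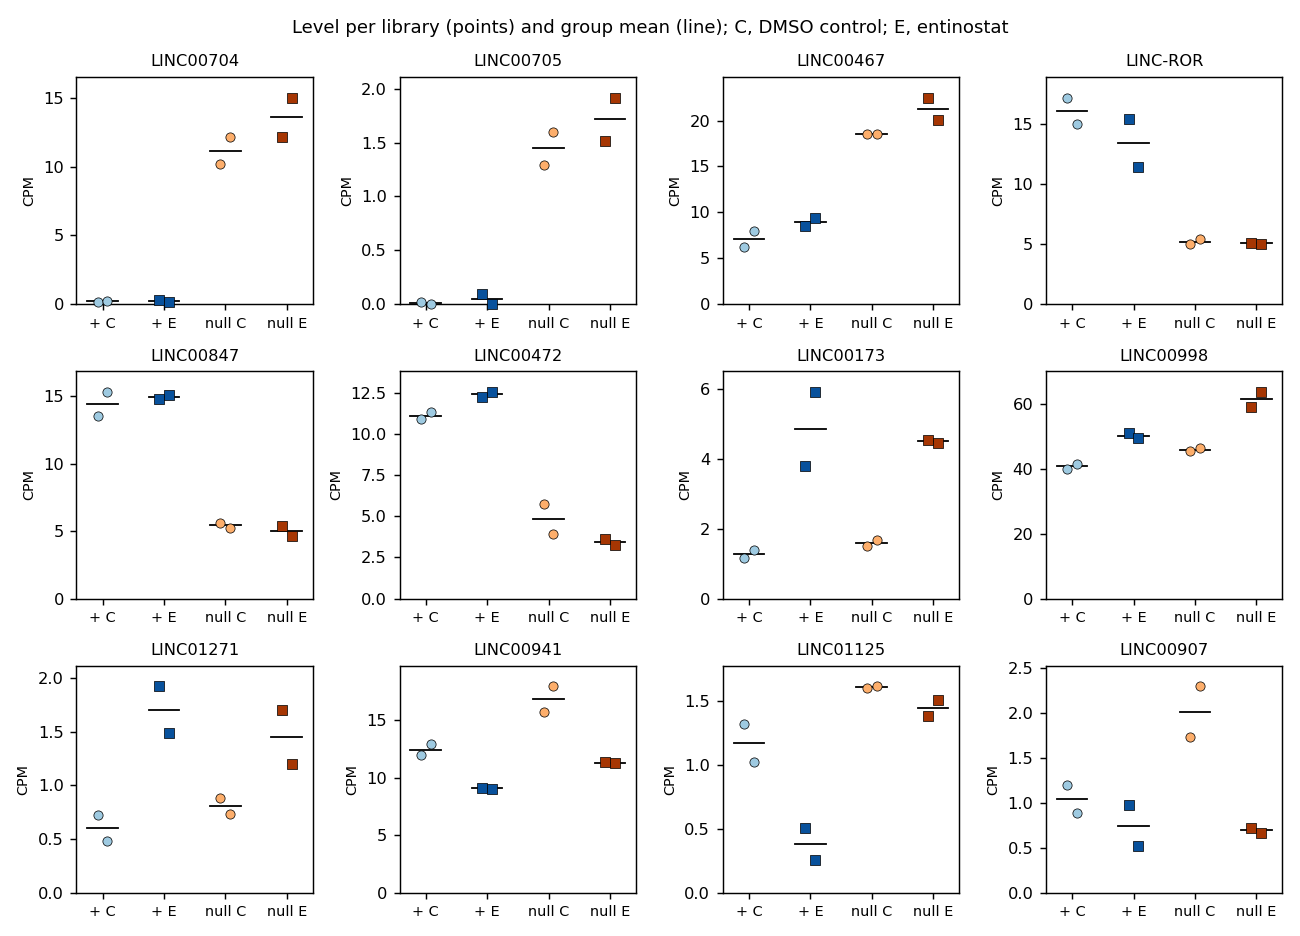
CPM (y axes, from 0) of 12 LINC genes in each of the 8 libraries, with points for libraries, a line for the mean of 2, and groups along the x axis (+, BRCA1+; null, BRCA1-null; C, control; E, entinostat). The line separates the points of LINC00704, LINC00705, LINC00467, LINC-ROR, LINC00847 and LINC00472, and entinostat those of LINC00173, LINC01271 and, within each line, LINC00998 and LINC00941.

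No LINC gene passed the test of a difference between the responses of the lines (edgeR, 0 of 149, background 0%). At an unadjusted p under 0.05 there were 11, the smallest adjusted p was 0.967, and the DESeq2 Wald test also gave 0. A call in 1 line alone is therefore not shown to be particular to it. The 5 with the smallest p were LINC01125 (1.53 ± 0.44), LINC00921 (-1.47 ± 0.48), LINC00924 (-1.74 ± 0.59), LINC01247 (-1.52 ± 0.53) and LINC01138 (-0.53 ± 0.19), as BRCA1-null minus BRCA1+ with SE. The median SE of this difference was 0.37, against 0.26 and 0.24 for the responses themselves. Across the 149 genes Pearson's r between the responses in the lines was 0.36, against 0.59 over all tested genes, a description over genes that are not independent.

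Grouped by what is known of them, the members behaved unevenly. Of 4 members known to encode a small protein (LINC00116, LINC00493, LINC00998 and LINC00094), LINC00116, the gene of the mitochondrial protein mitoregulin, was higher in BRCA1-null cells in DMSO (0.39 ± 0.088, SE, adjusted p = 0.00702) and the other 3 were not called there. LINC00493, now SMIM26, and LINC00094, now BRD3OS, were called in no comparison. In all, 11 members are protein coding in the current RefSeq table and 136 are lncRNA, and 4 and 44 of these were called higher and 1 and 10 lower in DMSO. Over all tested genes 21.1% were called higher and 21% lower there.

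Of 3 members linked to p53, DNA damage or genome stability, LINC-ROR was lower in BRCA1-null cells, LINC00657 was not called, and LINC-PINT, a p53-induced gene, was higher. LINC-PINT had counts of 150 and 150 in the BRCA1+ control libraries, 178 and 182 with entinostat, 292 and 347 in the BRCA1-null control libraries and 424 and 270 with entinostat and a difference of 0.87 ± 0.22 in DMSO (SE, adjusted p = 0.0110) and 0.75 ± 0.21 in entinostat (adjusted p = 0.0188). All 4 BRCA1-null libraries were above all 4 BRCA1+ libraries in CPM.

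Of 12 members studied as tumour-associated, 5 were higher and 1 lower in BRCA1-null cells in DMSO. In the whole set of 149 these calls were 48 and 12, and over all tested genes 21.1% and 21%. LINC00467 had counts of 249 and 368 in the BRCA1+ control libraries, 271 and 438 with entinostat, 843 and 1005 in the BRCA1-null control libraries and 1054 and 837 with entinostat, with 7.12 ± 1.27 CPM in BRCA1+ and 18.5 ± 0.0265 CPM in BRCA1-null control cells (SD, n = 2) and a difference of 1.37 ± 0.13 (SE, adjusted p = 4.56e-05). LINC00704, LINC00263, LINC01116 (0.62) and LINC00941 (0.44) were the other four higher. LINC00662 was lower (-0.66 ± 0.22, adjusted p = 0.0389). LINC00152, now CYTOR (0.29, adjusted p = 0.150), LINC00958 (0.44), LINC00665 (-0.035), LINC00339 (-0.10), LINC01133 (0.94) and LINC00678 (-0.76) did not pass the test. LINC00152 has near-identical copies, among them MIR4435-2HG, over 55.7% of its exon bases.

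The set was compared with a list of 57 well-known noncoding RNA genes of other names, of which 53 were in the table and 47 were tested. CYTOR, the current name of the member LINC00152, was on the list but not among the 47. In DMSO 16 were higher and 3 lower in BRCA1-null cells, and in entinostat 13 and 4. In either direction these were 19 and 17 of the 47, beside background shares of 42.2% and 39.4%. By direction the background was 21.1% higher and 21% lower in DMSO, and 20.5% and 18.9% in entinostat. The highest and lowest in DMSO were CRNDE (2.42) and H19 (-3.43). SCARNA9, a small Cajal body RNA gene and not a lncRNA gene, was 1 of the 3 lower there (-1.01). Entinostat raised 1, LUCAT1 (0.89), in BRCA1+ cells, and 0 were called in BRCA1-null cells (edgeR, at an adjusted p under 0.05). Of all tested genes 14.1% and 10.8% were called in these 2 comparisons.

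Members were also set beside their nearest neighbours. For 56 members whose nearest named neighbour overlapped or lay within 10000 bases, Pearson's r of their line differences in DMSO was 0.74 (Spearman's rho 0.54), and for the 93 with a farther neighbour it was 0.18 (rho 0.29). In entinostat the values were 0.78 and 0.34. Of the 21 near members called in DMSO, 10 had a called neighbour, or 47.6%, against the 42.2% called among all tested genes. Of these 10, 9 had the same direction, among them LINC01158 with POU3F3 (-0.98), LINC00842 with HNRNPA1P33 (2.86) and LINC01137 (1.24) with ZC3H12A (0.88), and the exception was LINC01057 with SLC44A3. Of the 39 farther members called in DMSO, 12 had a called neighbour, 10 of them in the same direction. In entinostat the direction was the same for 7 of 7 near and 12 of 13 farther pairs. Agreement in direction was thus not particular to near neighbours. Shared reads of overlapping genes can raise such an r. For the entinostat responses r over the near members was 0.25 for BRCA1+ and 0.31 for BRCA1-null cells.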

How the data were processed

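Poly(A) RNA of 8 libraries in 4 groups was sequenced. The authors aligned reads to hg19 with TopHat 2, counted them per gene symbol with NGSUtils and deposited raw counts in 1 table. Settings for strand and for reads with several positions are not given in the sources used here, and the library kit is not described as strand-specific. Gene lengths and positions came from the same table.

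All 8 libraries entered 1 fit in edgeR 4.0.16 (R 4.3.3). Genes were kept by filterByExpr, TMM factors scaled the library sizes, and the quasi-likelihood test, with 4 residual degrees of freedom from 4 group means, was run over 17714 genes. A gene was called at a Benjamini-Hochberg adjusted p under 0.05, two-sided. All p-values given are of this test. The fit was tested on simulated counts with known fold changes. CPM used effective library sizes. The floor of 3 counts covers counting error only.

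Exons were taken from GENCODE 44 lifted to hg19, which is not the annotation the counts were made with. Near-identical copies were sought with BLAST 2.17.0 (97% identity, 100 bases) in the transcripts of that annotation. The whole genome was not searched, so copies outside annotated transcripts are not counted. Current names came from RefSeq. Start windows were read from the GRCh37 genome.

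Members and lists were chosen with earlier results of these data known. Genes named are the 12 with the highest level per length, the 10 called genes with the largest change in each direction in DMSO and the 6 in the other comparisons, those called in both lines, the role groups, and those at the threshold. Nearest neighbours exclude entries longer than 3000000 bases, a limit added after the data were seen. The motifs, the shown windows, the division at 1000 counts and the 5% limit on shared exons were also chosen then. Alternatives were other scalings, filters, tests and fits, a replicate block, and the omission of each library.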

Additional observations from a re-analysis of the deposited data

How the results depend on the processing

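The number of LINC genes called between the lines in DMSO was 60 and was between 32 and 63 when 1 library was left out, 32 when a log2 change of at least 1 in either direction was also required, and 32 when genes with shared or copied exons were left out, an alternative added after the data were seen. In entinostat it was 41, 24 to 44 without 1 library, 21 with the larger change and 20 without the shared exons. For the response to entinostat in BRCA1+ cells it was 7, 1 to 7 without 1 library, 3 with the larger change, 4 without genes whose interval overlaps another, and 3 without the shared exons. In BRCA1-null cells it was 9, 2 to 16 without 1 library, 5 with the larger change, 4 without the shared exons, and 4 when only the groups compared entered the fit. A fit without 1 library leaves 1 in its group and fewer degrees of freedom, and its calls over all tested genes are not given here. Leaving out genes with shared or copied exons also made the set smaller, and 79 LINC genes had none of the recorded limits on measurement. The lower counts without the shared exons are therefore not a measure of how many calls rest on shared reads. With a replicate block the counts were 74, 55, 11 and 18 in the same order. Over all tested genes they were 8956, 8398, 4314 and 3640 with the block and 7472, 6975, 2503 and 1906 without it. With only the groups compared in the fit, the calls over all tested genes in BRCA1-null cells were 712 instead of 1906. The labels give no shared culture or day for equal replicate numbers, and for that reason the numbers were not taken as pairs. The correlation of replicate differences was 0.287 between the BRCA1+ groups and 0.200 between the BRCA1-null groups. Between groups of different lines it was 0.052 to 0.129. Whether equal numbers within a line mark a shared run was not tested. All counts under the other scalings, filters and the DESeq2 Wald test were within 1.5 times those given. The difference of responses gave 0 LINC genes under every alternative. The list of other noncoding RNA genes gave 1 instead of 0 in BRCA1-null entinostat cells with DESeq2 size factors.

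Of 48 named calls, 25 were kept under all alternatives, 14 of 20 between the lines in DMSO, 8 of 12 in entinostat, 1 of 7 for the response in BRCA1+ and 2 of 9 in BRCA1-null cells, and none of the 48 changed sign. Named genes that were not called in a comparison, 177 such pairs, are given here as counts only, although a value for each had been planned. Of these, 18 gained a call under at least 1 alternative and 71 had the other sign at least once without a call. The cause was not tested. With 2 libraries per group and a median of 890 summed counts, the median SE of the line difference in DMSO was 0.32 for the 80 genes under 1000 counts and 0.16 for the other 69.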

Other observations

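For 9 LINC genes both entinostat libraries lay above both control libraries in 1 line and below them in the other, or 6.04% of the 149, and this held for 2.88% of all tested genes. They were LINC00339, LINC01144, LINC01138, LINC00623, LINC00908, LINC01105, LINC00578, LINC01207 and LINC00472. LINC01105, now SILC1, was at 0.35 in BRCA1+ and -0.87 in BRCA1-null cells on the log2 scale, and LINC00472 at 0.16 and -0.47. LINC01144 moved the other way, at -0.14 and 0.76. The test of the difference of responses gave an adjusted p of 0.967 for each of the 9 (edgeR), so no difference is shown. The shares of 6.04% and 2.88% were not compared at matched counts. The median summed count was 890 in the set and 5245 over all tested genes.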
